A study of Mus musculus with 6 samples.

Results

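The CC chemokines examined here were 10 genes, Ccl2, Ccl5, Ccl7, Ccl8, Ccl9, Ccl11, Ccl12, Ccl17, Ccl20 and Ccl25, which were found by gene name among the 78298 genes of the count table. They were measured by RNA-seq in RENCA, a mouse renal adenocarcinoma cell line. In the oe-AQP1 group (n = 3) the cells carried a lentivirus with the coding sequence of mouse Aqp1, a water channel, under the ubiquitin C promoter, which is active in most cell types. In the oe-NC group (n = 3) they carried the corresponding empty vector. Puromycin selection (2 μg/mL, 14 days) was applied to both, so the controls had also met the virus and the antibiotic, and no cells without virus were sequenced. The samples are described as biological replicates, the number of clones behind each is not given, and p-values measure the spread between these samples. A difference between the transduced lines other than AQP1 cannot be told apart from an effect of AQP1 with these samples. All 6 were labelled as 1 batch.

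CC chemokines are small secreted proteins with a pair of adjacent cysteines near the start of the mature chain. They bind glycosaminoglycans on cell surfaces and act on G protein-coupled receptors named CCR, along whose ligands leukocytes migrate. In kidney and kidney tumors they are known for bringing in monocytes, T cells and dendritic cells, and epithelial and tumor cells are among their sources. The RNA data bear on transcripts, not on secreted protein.

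All members share the cysteine pair, and the bases that encode it are shown for 5 members to let a reader see how far the genes differ around it. Each stretch is from the canonical GENCODE M39 transcript, 12 bases to either side of the cysteine codons, which are in capitals.
Ccl2: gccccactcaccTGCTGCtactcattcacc
Ccl7: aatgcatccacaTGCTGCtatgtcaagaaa
Ccl12: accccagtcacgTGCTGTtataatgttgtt
Ccl5: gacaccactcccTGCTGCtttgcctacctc
Ccl20: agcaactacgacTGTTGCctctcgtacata
They lie in exon 2 of each gene, on GRCm39 at chr11:81927320-81927349 (Ccl2), chr11:81937352-81937381 (Ccl7) and chr11:81993448-81993477 (Ccl12) on the forward strand, chr11:83420056-83420085 (Ccl5) on the reverse strand and chr1:83095522-83095551 (Ccl20) on the forward strand. The pair was encoded TGCTGC in 8 of the 10 members, TGCTGT in Ccl12 and TGTTGC in Ccl20. The coding sequences of the 5 neighbours Ccl2, Ccl7, Ccl11, Ccl12 and Ccl8 shared 64.2% to 70.5% of aligned bases over their 10 pairs. Pairs with a member outside these 5 ranged from 56.3% (Ccl8 and Ccl20) to 75.5% (Ccl17 and Ccl25). The measure leaves out bases opposite a gap, and Ccl25 has the longest coding sequence, 228 codons. With the pairs of Ccl25 set aside, the highest outside pair was Ccl2 and Ccl17 at 67.0%. Among the neighbours only Ccl7 and Ccl8, at 64.2%, were below that. The longest run of identical bases between canonical transcripts of any pair of members was 23 bases, between Ccl2 and Ccl7. No stretch of 50 bases in the canonical transcripts of 8 members occurred in another gene. In Ccl9, 2.6% of such stretches did, and in Ccl25, 4.9%, shared with Elavl1. Other exons were not searched, and the canonical transcript of Ccl25 has 902 bases, beside 12537 in all its exons.

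The expected counts of a sample summed to 18385714.02 at the lowest and 21920898.67 at the highest, and a count of 3, the limit that a count of 0 allows, corresponded to 0.137 to 0.163 on the counts-per-million scale (CPM). Aqp1 had 7713, 8545 and 7838 counts in oe-AQP1 and 41, 25 and 45 in oe-NC (log2 fold change 7.70, SE 0.16, FDR 1.34e-10). The oe-NC sample 1 stood apart from its group: the chi-square per gene against the other oe-NC samples was 9.47 and 11.1, and it was 1.71 to 2.04 in the other 4 pairs of replicates. The epithelial markers Krt8 and Krt18 and the renal markers Pax8, Pax2 and Cdh16 were present in all 6 samples. Of the same list, Epcam was at 0, Slc34a1 had 0 to 1 counts, Krt19 10 to 26 and Cdh1 38 to 78. Of the 16 macrophage and leukocyte markers 5 passed the count filter: Cd74 (650 to 1036 counts), Cd68 (576 to 777), Lyz2 (234 to 361), Cd14 (229 to 269) and Csf1r (56 to 202). The pan-leukocyte marker Ptprc had 0 to 3 counts and the macrophage marker Adgre1 had 0. The summed level of that list was 101 to 110 CPM with AQP1 overexpression and 106 to 107 CPM in the controls.

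Among the CC chemokines, Ccl2, Ccl5, Ccl7 and Ccl20 rose with AQP1 overexpression and Ccl17 fell. By fold, Ccl5 rose 36.8-fold and Ccl2 6.05-fold, and these genes were also the members with the most transcripts in oe-AQP1. The filter on low counts kept 6 of the 10 members and 15522 genes in all. Of the 6, 4 were higher at an FDR under 0.05 and a log2 fold change above 1 (limma-voom), where 4.39% of all kept genes were, and 1 was lower past the same thresholds, where 0.844% were. At an FDR under 0.05 alone the member counts were the same, beside 16.0% of kept genes higher and 16.6% lower. The CPM of the groups did not overlap in any of these 5 genes, as was the case for 23.5% of kept genes in the higher direction and 23.8% in the lower. Ccl7 reached the cut of the filter in the oe-AQP1 samples alone, and Ccl20 in those and in 2 oe-NC samples. Neither would have passed through the oe-NC samples, so these shares do not serve as a measure for them. Without oe-NC sample 1 the counts of members called were again 4 higher and 1 lower. A higher count in bulk RNA can come from more expressing cells or from more RNA per cell, which cannot be told apart here.

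**Figure D1:**
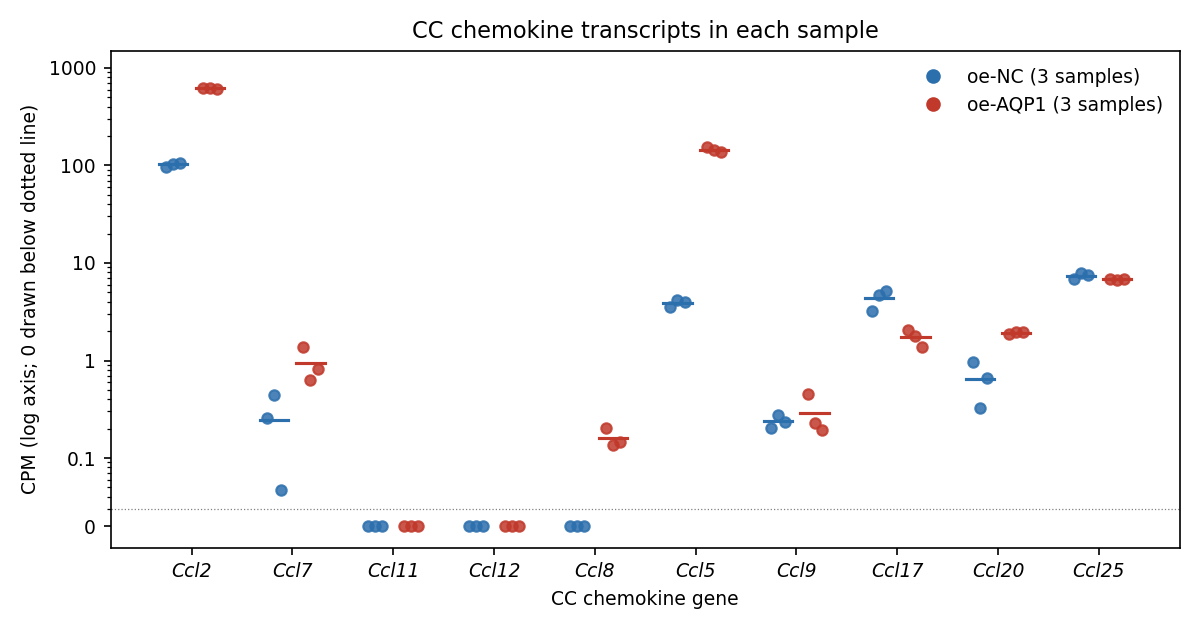
Level of each CC chemokine in each sample, in CPM on a log axis, with oe-NC in blue and oe-AQP1 in red; each point is a sample, bars are group means and values of 0 are drawn below the dotted line. Ccl2 and Ccl5 were separated furthest upward, Ccl17 was lower in oe-AQP1, Ccl9 and Ccl25 overlapped, and Ccl11 and Ccl12 were at 0 throughout.

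Ccl2, the monocyte chemoattractant that acts on CCR2, had 12364, 13559 and 12577 counts in oe-AQP1 and 1886, 1900 and 2271 in oe-NC. Every oe-AQP1 sample was above every control, and the spread within groups was small (618 ± 6.89 CPM against 102 ± 5.44, SD, n = 3 each). The log2 fold change was 2.60 (SE 0.04, 95% interval 2.50 to 2.69, FDR 3.03e-11), and it was 2.55 without oe-NC sample 1. By level per length, Ccl2 ranked 45 to 46 among all genes in oe-AQP1, and the controls ranked it 358 to 393, so the transcript was already abundant in the control cells.

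Ccl7, a further monocyte chemoattractant and the next gene after Ccl2 on the chromosome, had 27, 14 and 17 counts in oe-AQP1 and 5, 8 and 1 in oe-NC. The groups did not overlap, but all 6 values were low (0.943 ± 0.378 CPM against 0.246 ± 0.196, SD, n = 3 each). The log2 fold change was 2.17 (SE 0.60, 95% interval 0.82 to 3.52, FDR 0.0202). The call was lost without oe-AQP1 sample 1 (log2 fold change 1.88, FDR 0.0615), without oe-AQP1 sample 3 (2.22, FDR 0.0501) and without oe-NC sample 3, the sample with a single count (1.34, FDR 0.0692). It was 2.40 without oe-NC sample 1, with an FDR of 0.00874.

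Ccl8, which in mice acts on CCR8, had 4, 3 and 3 counts in oe-AQP1 and 0 in each oe-NC sample. It did not pass the filter. Against 3 counts per control sample its level was at least 1.06-fold higher in oe-AQP1, so a change was barely resolved at this depth. With no filter beyond 1 count it was called (FDR 0.00179).

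Ccl11, the eosinophil chemoattractant eotaxin, and Ccl12, a CCR2 ligand of the mouse, had 0 counts in all 6 samples, which allows up to 0.137 to 0.163 CPM in each. They lie between Ccl7 and Ccl8, so the 5 genes of 1 cluster ranged from 618 CPM in oe-AQP1 to no count at all.

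**Figure D2:**
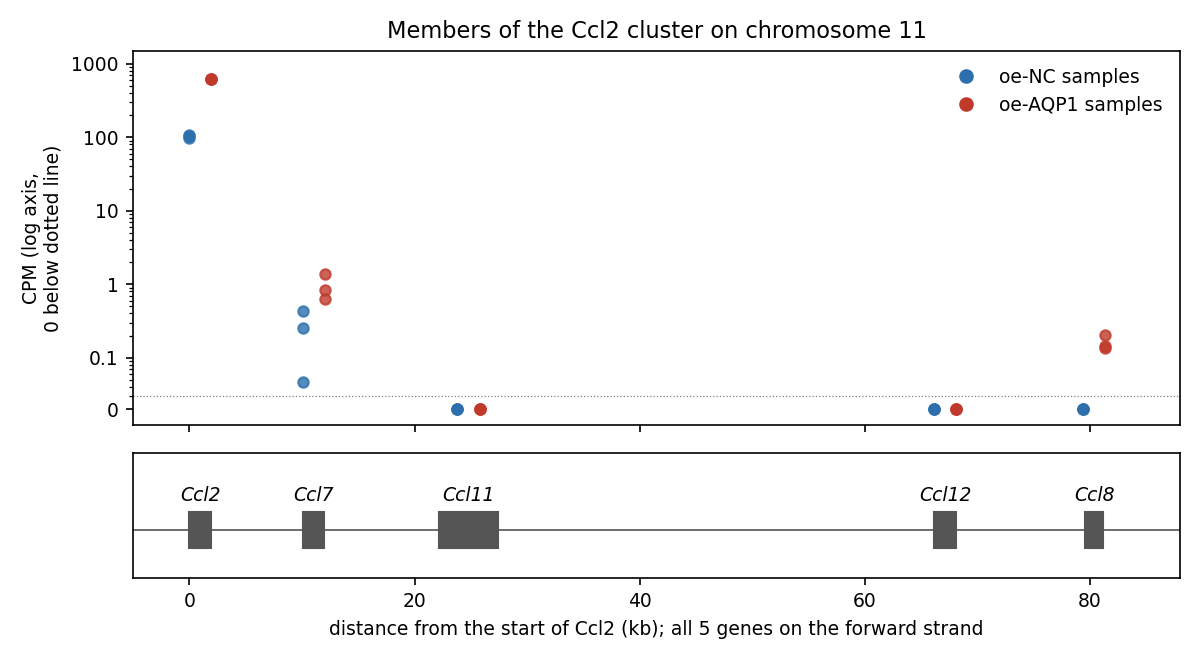
Map of the 5 CC chemokine genes of the Ccl2 cluster by distance from the start of Ccl2 (kb, lower panel, boxes from gene start to end) with the CPM of each sample above each gene (log axis, points of the groups set apart sideways, 0 below the dotted line). Ccl2 and Ccl7, at 0 and 10.1 kb, had counts in both groups, Ccl11 and Ccl12 had none, and Ccl8, at 79.6 kb, had counts in oe-AQP1 samples.

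The cluster spans chr11:81926397-82007625 on GRCm39, 81.2 kb, with all 5 genes on the forward strand. Ccl2 lies at chr11:81926397-81928279, and the starts of Ccl7, Ccl11, Ccl12 and Ccl8 were 10.1, 22.2, 66.2 and 79.6 kb from its start. Ccl5 (chr11:83416602-83425942, reverse strand) lies 1.41 Mb beyond Ccl8, and Ccl9 (chr11:83463745-83473161, reverse strand) 37.8 kb beyond Ccl5.

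Ccl5, which draws T cells and natural killer cells, had 3016, 3165 and 2793 counts in oe-AQP1 and 69, 77 and 85 in oe-NC. The groups were far apart in every sample (144 ± 8.35 CPM against 3.91 ± 0.356, SD, n = 3 each). The log2 fold change was 5.20 (SE 0.12, 95% interval 4.92 to 5.48, FDR 4.44e-10), the largest of the 6 members fitted, and 5.13 without oe-NC sample 1. By rank among all genes per length, Ccl5 stood at 7505 to 8135 in oe-NC and at 211 to 233 in oe-AQP1.

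Ccl9, a CCR1 ligand and the neighbour of Ccl5, had 9, 5 and 4 counts in oe-AQP1 and 4, 5 and 5 in oe-NC. The groups overlapped (exact two-sided permutation test on log2 CPM, p = 0.9), and the gene did not pass the filter. E230016K23Rik, a lncRNA on the opposite strand that overlaps Ccl9, had 107, 109 and 105 counts against 89, 98 and 89, and whether counting used the strand is not given in the sources used here.

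Ccl20, the ligand of CCR6 that draws dendritic cells and Th17 cells, had 37, 43 and 40 counts in oe-AQP1 and 19, 6 and 14 in oe-NC. The oe-AQP1 samples were close to each other and all above the controls, which spread more widely (1.92 ± 0.046 CPM against 0.651 ± 0.32, SD, n = 3 each). The log2 fold change was 1.63 (SE 0.32, 95% interval 0.92 to 2.34, FDR 0.00313), which is 3.10-fold. It was 1.96 without oe-NC sample 1 and at its lowest 1.25 with another sample left out.

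Ccl17, the CCR4 ligand that draws Th2 and regulatory T cells, went the other way, with 41, 39 and 28 counts in oe-AQP1 and 63, 85 and 111 in oe-NC. Every oe-AQP1 sample was below every control (1.74 ± 0.357 CPM against 4.36 ± 1.03, SD, n = 3 each). The log2 fold change was -1.31 (SE 0.24, 95% interval -1.86 to -0.77, FDR 0.00241), and -1.52 without oe-NC sample 1, the lowest control. It was the member that fell.

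Ccl25, the CCR9 ligand known from thymus and small intestine, had 134, 147 and 141 counts in oe-AQP1 and 134, 143 and 159 in oe-NC. The groups overlapped, and the log2 fold change was -0.12 (SE 0.10, 95% interval -0.34 to 0.10, FDR 0.394), so a change past 1 in either direction lies outside the interval. Elavl1 overlaps Ccl25 on the opposite strand and had 2125 to 2498 counts over the 6 samples. Reads of Ccl25 and Elavl1 in the shared sequence may not be told apart, and their part in the Ccl25 count was not tested.

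**Figure D3:**
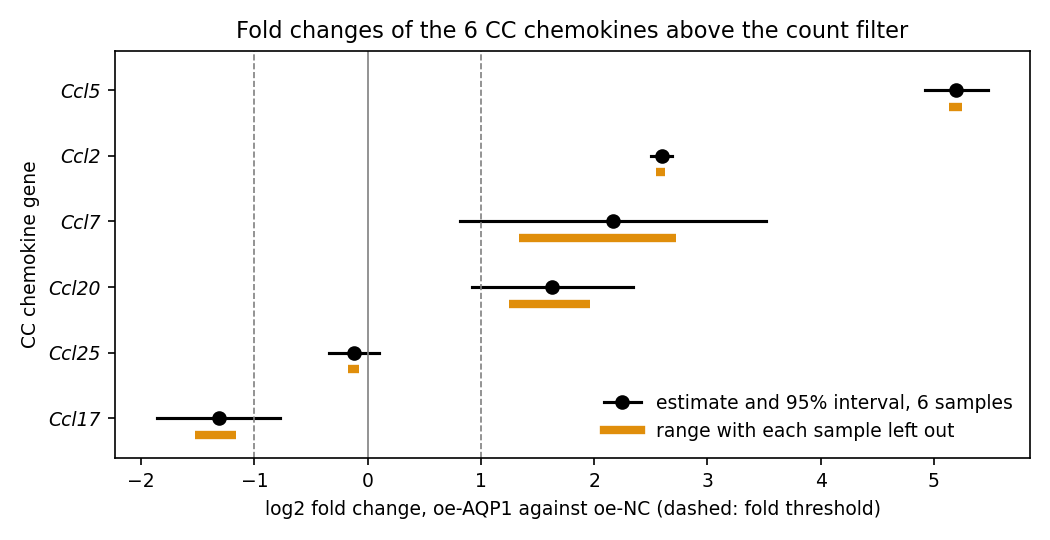
Log2 fold change (oe-AQP1 against oe-NC) of the 6 CC chemokines above the count filter; points and black lines are estimates with 95% intervals from all 6 samples, orange bars the range over leaving out each sample, and dashed lines mark 1 and -1. Ccl5 and Ccl2 had narrow intervals at 5.20 and 2.60, Ccl7 had the widest, and Ccl17 was on the negative side.

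For single values, 3 against 3 samples cannot give an exact two-sided permutation p below 0.1. In that exact permutation test Ccl2, Ccl5, Ccl7, Ccl8, Ccl17 and Ccl20 gave p = 0.1 and Ccl25 gave p = 0.2. The FDR values above come from the fit over all kept genes, which draws on the spread of every gene.

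Levels of different members were compared on the transcripts-per-million scale (TPM), which divides by gene length. In oe-NC, Ccl2 was the most abundant member (348 ± 9.56 TPM, SD, n = 3), followed by Ccl17 (25.3 ± 5.42 TPM) and Ccl5 (14.7 ± 1.03 TPM), whose samples did not overlap. Ccl25, Ccl20 and Ccl7 followed at 2.28, 1.79 and 1.19 TPM, and each overlapped its neighbour in this order. Ccl9 came last of the detected members at 0.295 TPM. In oe-AQP1, Ccl2 led again (2190 ± 14.6 TPM), with Ccl5 now the next (565 ± 30.3 TPM) and Ccl17 after it (10.5 ± 2.12 TPM). Ccl20 and Ccl7 followed at 5.45 and 4.70 TPM and overlapped, and Ccl25, Ccl8 and Ccl9 had 2.18, 1.26 and 0.378 TPM. By mean level, Ccl25 is the member whose place depends on the length used. With its canonical transcript (902 bases) in place of all its exons (12537 bases) it had 30.2 TPM in oe-AQP1, above Ccl17 at 13.4. In oe-NC it had 31.7 TPM, beside Ccl17 at 32.4 and Ccl5 at 28.3. The overlap of samples given above holds for the length of all exons and can differ with canonical transcripts.

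The summed level of the 10 genes was 2830, 2770 and 2730 TPM in oe-AQP1 and 377, 399 and 405 TPM in oe-NC. Ccl2 made up 77.9% to 79.6% of this sum in oe-AQP1 samples and 87.9% to 89.5% in the controls. Ccl5 made up 19.6% to 21.1% and 3.63% to 3.95%, and Ccl17 0.304% to 0.443% and 5.13% to 7.36%. None of these 3 ranges overlapped between the groups. The Ccl2 level was 3.70, 3.87 and 4.06 times that of Ccl5 in the oe-AQP1 samples and 24.7, 22.3 and 24.1 times in the oe-NC samples (exact two-sided permutation test, p = 0.1, the smallest possible). The pool therefore held more of both transcripts with AQP1 overexpression, and Ccl5 took a larger part of it.

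**Figure D4:**
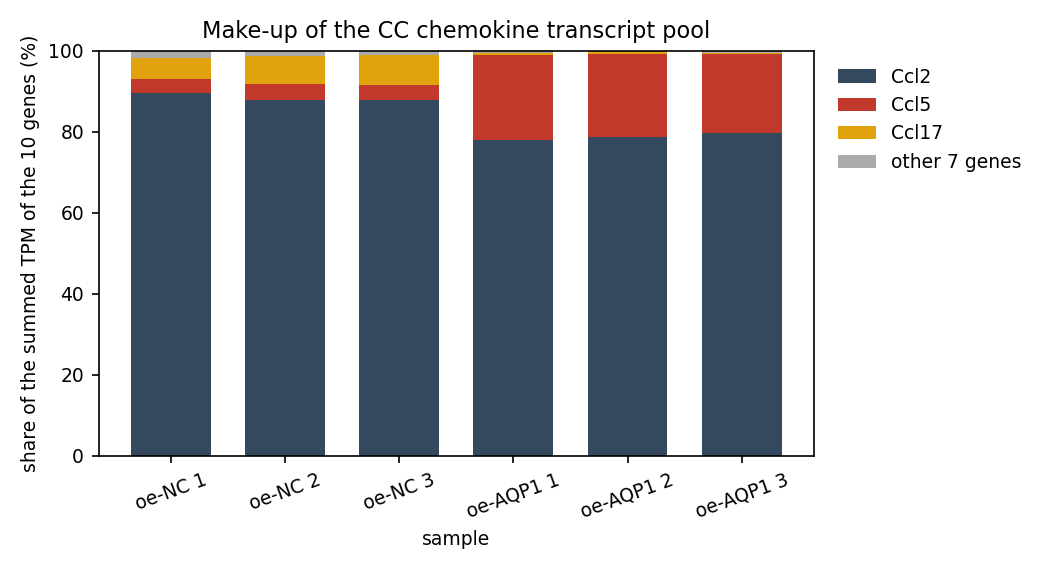
Share of each CC chemokine in the summed TPM of the 10 genes in each sample (stacked bars from 0 to 100%), with the 7 genes of small share joined in grey. The Ccl5 share was 19.6% to 21.1% in oe-AQP1 samples and 3.63% to 3.95% in the controls, and the Ccl17 share was 0.304% to 0.443% and 5.13% to 7.36%.

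Sequence before the start site is shown for 4 members whose counts went different ways: Ccl20, which rose, Ccl17, which fell, Ccl8, detected in oe-AQP1 samples, and Ccl12, not detected. The RefSeq promoter table for GRCm39 held 6 of the 10 members, Ccl8, Ccl9, Ccl12, Ccl17, Ccl20 and Ccl25, and not Ccl2, Ccl5, Ccl7 or Ccl11. Of each window, the 250 bases before the start site are printed, with matches to the searched motifs in capitals.
Ccl20: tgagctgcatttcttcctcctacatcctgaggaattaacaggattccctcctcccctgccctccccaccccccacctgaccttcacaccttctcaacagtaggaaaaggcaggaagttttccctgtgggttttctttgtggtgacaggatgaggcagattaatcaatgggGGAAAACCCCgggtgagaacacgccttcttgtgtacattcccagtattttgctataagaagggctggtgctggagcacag
Ccl17: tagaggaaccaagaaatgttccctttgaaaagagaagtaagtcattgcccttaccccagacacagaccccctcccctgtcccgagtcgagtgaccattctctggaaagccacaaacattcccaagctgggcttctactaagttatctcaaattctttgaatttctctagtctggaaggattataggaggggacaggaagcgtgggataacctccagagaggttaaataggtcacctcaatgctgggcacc
Ccl8: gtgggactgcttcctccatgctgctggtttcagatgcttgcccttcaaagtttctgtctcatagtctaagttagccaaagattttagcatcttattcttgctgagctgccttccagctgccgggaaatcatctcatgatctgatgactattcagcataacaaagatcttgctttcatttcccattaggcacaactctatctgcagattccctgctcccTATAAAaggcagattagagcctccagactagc
Ccl12: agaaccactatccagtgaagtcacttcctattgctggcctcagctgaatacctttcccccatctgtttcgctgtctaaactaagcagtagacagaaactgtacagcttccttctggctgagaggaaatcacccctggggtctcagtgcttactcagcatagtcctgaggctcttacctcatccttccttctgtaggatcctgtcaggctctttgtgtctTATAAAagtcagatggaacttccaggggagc
They lie on the forward strand of GRCm39 at chr1:83094237-83094486, chr8:95536831-95537080, chr11:82005761-82006010 and chr11:81992421-81992670. The start site that RefSeq gives for Ccl17 lies 2723 bases inside the gene as GENCODE draws it. Both strands of the window from 250 bases before to 50 bases after the start were searched for GGGNNNTTCC, a form of the motif of NF-κB, which is known to bind chemokine promoters, for GAAANNGAAA, an element of interferon response, for TGANTCA, the AP-1 motif, and for TATAAA, the TATA box. These letters occurred in 5.56%, 3.44%, 7.81% and 13.6% of the 32851 promoters of the table. Ccl20 held the NF-κB letters once, at -80 from the start site. Ccl8 and Ccl12 held TATAAA at -32 and -31, and no other searched motif. Ccl17 held none of the 4. Ccl9 held the NF-κB letters at -35 and the AP-1 letters at -53, beside 3 matches to TATAAA, of which 2 overlapped. Of the entries of Ccl25, 1 held TATAAA at -16. GAAANNGAAA was in none of the windows of these members.

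Of genes other than chemokines, 66 lie within 100 kb of a member, 19 of them passed the filter, and 3 rose past both thresholds while 0 fell, beside 4.39% and 0.844% of all kept genes. Heatr9 and Gm11419 passed the filter through the oe-AQP1 samples alone. The filter thus favoured genes that were higher there, and the count of 3 is not read against that share. The lncRNA Gm31522, which begins 0.3 kb from Ccl2 and runs away from it on the opposite strand, had 65, 100 and 74 counts in oe-AQP1 and 32, 25 and 32 in oe-NC (log2 fold change 1.33, SE 0.20, FDR 0.000667). Gm11419, a lncRNA 39.6 kb from Ccl2, had 27, 30 and 18 against 6, 5 and 6 (1.95, SE 0.34, FDR 0.0017). Heatr9, 3.6 kb from Ccl5, had 15 counts in each oe-AQP1 sample and 1, 1 and 0 in oe-NC (FDR 0.000196), a ratio of 21.4 with an exact counting interval of 5.59 to 182. These 3 genes lay nearest to Ccl2 or Ccl5. Of Ccl17, Ccl20 and Ccl25, 4, 1 and 7 neighbours were kept and 0 were called, which is too few genes to set these members apart from Ccl2 and Ccl5.

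The profiles most like Ccl2 and Ccl5 over the 6 samples were sought among all kept genes, by the Euclidean distance between log2 CPM values centred on each gene's mean. Nearest to Ccl2 were Hsh2d (distance 0.17), Tlr3 (0.18), Ifit1bl2 (0.18), Mx2 (0.19) and Gbp4 (0.19), with log2 fold changes of 2.48 to 2.74. Nearest to Ccl5 were Cxcl10 (0.24), Gm35326 (0.33), Tnfsf10 (0.34), Phf11b (0.36) and Ifit3b (0.36), with log2 fold changes of 5.11 to 5.32. Such genes share with the member the size of the group difference by construction.

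Of 13 other CC chemokines, 8 were at 0 in all samples and 1, Ccl4, passed the filter. Ccl4, which draws monocytes and T cells, had 22, 20 and 22 counts in oe-AQP1 and 1 in each oe-NC sample (FDR 3.69e-05), a ratio of 20.3 with an exact counting interval of 6.63 to 101. It passed the filter through the oe-AQP1 samples alone, as did Grk3, described further on. Ccl1, Ccl19, Ccl22, Ccl26 and Ccl27a were among those at 0, and Ccl6 had 2 to 4 counts in every sample.

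The receptors on which the members act were mostly near or at 0 in these cells. Of 11 CC chemokine receptors 3 passed the filter. Ccr1, Ccr3 and Ccr8 had 0 counts throughout, and Ccr2 had 2, 0 and 1 in oe-AQP1 and 0 in each oe-NC sample. Ccrl2, an atypical receptor that binds chemerin, rose, with 636, 787 and 726 counts against 73, 48 and 72 (log2 fold change 3.41, SE 0.14, FDR 2.99e-08). Ccr7 and Ccr10 did not pass the test (-0.52, FDR 0.0574, and -0.33, FDR 0.166). Of 4 atypical chemokine receptors, Ackr3, which takes up CXC ligands, was the 1 kept and had 52, 64 and 72 counts against 80, 85 and 96 (-0.55, SE 0.15, FDR 0.0169).

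**Figure D5:**
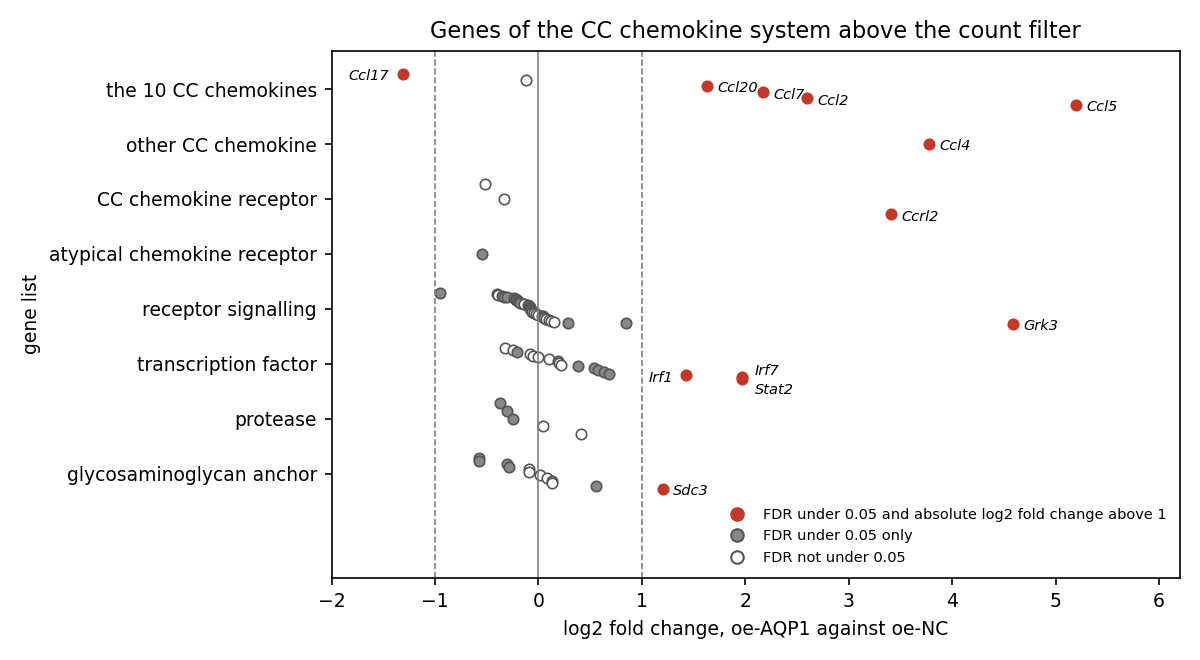
Log2 fold change (oe-AQP1 against oe-NC) of the genes reported here above the count filter, by list; filled red points pass an FDR of 0.05 and a log2 fold change of 1 in either direction and are named, grey points pass the FDR alone, and open points do not. Beyond the 10 CC chemokines, the red points were all on the higher side: Ccl4, Ccrl2, Grk3, Irf1, Irf7, Stat2 and Sdc3.

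Among 47 genes of signalling below the receptors, 40 were kept. At an FDR under 0.05, 3 were higher and 12 lower, beside 16.0% and 16.6% of all kept genes. The median log2 fold change was -0.08, beside 0 over all kept genes. Grk3, a kinase that switches off active receptors, had 61, 52 and 58 counts against 0, 3 and 6 (log2 fold change 4.59, SE 0.64, FDR 0.000409). Its value moved to 3.49 without oe-NC sample 1 and 5.30 without oe-NC sample 3. Arrb1, an arrestin of the same process, was lower (-0.95, FDR 4.96e-07), and the focal adhesion kinase relative Ptk2b was higher (0.85, FDR 9.63e-06).

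All 19 transcription factors listed for their known part in chemokine transcription were kept. At an FDR under 0.05, 10 were higher and 1 lower, beside 16.0% and 16.6% of all kept genes. The median log2 fold change was 0.22. Called among them were the interferon pathway factors Stat2 (log2 fold change 1.97), Irf7 (1.97) and Irf1 (1.43). Irf7 had 38273, 42472 and 38940 counts against 10018, 8815 and 10261.

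Of 12 proteases known to trim or shed chemokines and their anchors, 5 were kept and 3 were lower, Furin (-0.37, FDR 0.0142), Adam17 (-0.30, FDR 0.00125) and Adam10 (-0.25, FDR 0.00343), with a median of -0.25. At an FDR under 0.05, 16.6% of all kept genes were lower. Dpp4, which trims the amino end of several chemokines, had 1 to 8 counts. Of 16 genes of the glycosaminoglycan anchors, 12 were kept, 3 were higher and 4 lower, beside 16.0% and 16.6% of all kept genes. Their median was -0.03. The syndecan Sdc3 was called, with 168, 213 and 192 counts against 83, 80 and 74 (1.20, FDR 5.29e-05). The heparan sulfate enzymes Ext1 (0.56, FDR 5.88e-06) and Ndst1 (-0.57, FDR 4.73e-06) and the glypican Gpc1 (-0.57, FDR 0.000493) passed the FDR alone.

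Of the leukocyte list Csf1r was called lower (56, 74 and 76 counts against 173, 183 and 202, log2 fold change -1.51, FDR 1.31e-05), 1 was higher and 2 lower at an FDR under 0.05, and the median was -0.16. At that FDR 16.0% of all kept genes were higher and 16.6% lower, which also stands beside the marker lists that follow. The 10 endothelial and fibroblast markers had 3 genes kept, 1 of them lower, and summed to 14.2 to 15.4 CPM against 19.6 to 28 CPM. The lower gene was Col1a1, with a mean of 12.5 CPM against 21.1 CPM, whereas Pecam1 and Col1a2 did not pass the FDR. The 10 epithelial and renal markers had 8 genes kept, 6 of them lower, a median of -0.52, and sums of 799 to 832 CPM against 983 to 1090 CPM. Ptprc and Adgre1 were at or near 0 in both groups, whereas Cd74, Cd68, Lyz2 and Cd14 were counted in every sample. The part of these and the other markers in the member values was not tested.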

How the data were processed

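RNA of 3 oe-AQP1 and 3 oe-NC samples was sequenced from TruSeq libraries. The authors deposited expected counts per gene, not scaled between samples, of which 10.2% were not whole. Every value of the 10 members was whole. The submitters' processing notes list fastp, HISAT2, featureCounts and Subread with the builds GRCm38 and mm10, whereas the study's methods name GRCm39. The strand setting of the counting is not given in the sources used here. Positions, lengths and neighbours were taken by gene identifier from GRCm39 and GENCODE M39, which held 78168 of the 78298 genes. Deposited GO and KEGG annotation and the columns of group means were not used.

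Counts were rounded and scaled by TMM, and genes were kept by filterByExpr (R 4.3.3, edgeR 4.0.16). The test was limma-voom (limma 3.58.1) with Benjamini-Hochberg adjustment (FDR) over 15522 genes. A gene was called at an FDR under 0.05 with an absolute log2 fold change above 1. Single values had an exact two-sided permutation test. TPM used the union of exons. Identity came from global alignment (biopython 1.88). The scripts were tested on simulated counts. Samples were grouped by their labels. Depth was 18385714.02 to 21920898.67 counts per sample. Intervals of count ratios cover counting error only. All 10 members are reported. Of other lists, the genes called were named, or at most the 4 with the largest change at an FDR under 0.05, besides receptors and markers that the text needs as values near 0, Ccr7 and Ccr10, and Ccl1, Ccl6, Ccl19, Ccl22, Ccl26, Ccl27a and Dpp4, named after their values were seen. The leukocyte markers Cd74, Cd68, Lyz2 and Cd14 were also named after their values were seen, as were the markers Slc34a1, Krt19, Cdh1, Col1a1, Pecam1 and Col1a2. Some genes counted in these lists are not reported by name here. The 5 nearest profiles of Ccl2 and Ccl5 and called neighbours within 100 kb were also named. The members, lists and tests were chosen with earlier results of these data known. The alternatives tried were DESeq2 1.42.0, quasi-likelihood fits in edgeR, sample weights, 3 scalings, 2 filters, a replicate block, 2 thresholds, unrounded counts and leaving out each sample. Canonical transcript length was added after the union length of Ccl25 was seen.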

Additional observations from a re-analysis of the deposited data

How the results depend on the processing

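Over the 6 fitted members, 94 values were recomputed: 91 kept their direction and side of the thresholds, 3 kept their direction and lost the call, all of Ccl7 with a sample left out, and 0 changed direction. The genes called numbered 812, and 765 to 891 with each sample left out. Requiring at least 10 counts in every sample gave 482 genes called and 2 members higher instead of 4, since Ccl7 and Ccl20 no longer passed the filter. The FDR alone gave 5050 genes, with 39 instead of 8 in the other lists of the CC chemokine system. A log2 fold change above 1.5 in either direction gave 428 genes and 0 members lower instead of 1. With each sample left out, 3 to 4 members were higher, 1 was lower, and 8 to 9 genes of the other lists were called. Without a filter beyond 1 count, 5 members were higher, Ccl8 being added, and Ccl9 had a log2 fold change of 0.16. Split by direction, the genes called were 681 higher and 131 lower. They were 416 and 66 with at least 10 counts in every sample, 2481 and 2569 by the FDR alone and 394 and 34 above 1.5. Genes lower numbered 204 without a filter beyond 1 count. The 3 other scalings moved the median log2 fold change of all genes to at most 0.015. Samples with the same number did not deviate together (correlations 0.015, -0.02 and -0.073). These values showed no pairing by number, but with 3 samples per group they cannot settle whether there was one. The replicate block gave 786 genes called, 4 members higher, 1 lower and 8 genes of the other lists, and did not change any member's call. With canonical transcript lengths the mean share of Ccl2 was 72.8% in oe-AQP1 and 83.4% in oe-NC instead of 78.8% and 88.4%, and that of Ccl5 25.8% and 4.84% instead of 20.3% and 3.74%. At this depth Ccl8 and Ccl9, with at most 9 counts a sample, did not pass the filter, and Ccl11 and Ccl12 had no counts.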
